A study of Mus musculus with 2 samples.

Results

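Mir142, Mir223, Mir150, Mir155, Mir146 and Mir146b are microRNA genes known from white blood cells, and their levels in the neonatal mouse heart are described here. The genes were chosen by their names in the GENCODE M21 annotation and are 6 of the 2202 microRNA genes in the deposited tables. Their counts come from microRNA sequencing (RNA under 30 nt) of 2 hearts of female B6CASTF1/J mice, a hybrid strain, taken 4 days after birth. Replicate 1 is the heart of the animal numbered 3 and replicate 2 that of the animal numbered 4. No genetic change and no treatment is named in the labels. Both hearts belong to 1 group, so the data give levels and the gap between the libraries, and no condition is compared. The labels give both hearts the same donor entry and do not say whether RNA was prepared separately, so differences between them may be technical.

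A microRNA is cut from a hairpin precursor into short mature strands, named 5p and 3p, and its seed, the bases near its 5′ end, pairs with target messenger RNAs and lowers their output. miR-142 is made throughout the blood lineages, miR-223 mainly in granulocytes and monocytes, and miR-150 mainly in mature lymphocytes. miR-155 and miR-146a are induced in immune cells by inflammatory signals, miR-155 promoting and miR-146a damping the response, and both are also made in other cells, such as endothelium. miR-146b is a relative of miR-146a at another locus. In the heart such microRNAs can come from resident macrophages, from other leukocytes, and from blood left in the tissue.

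The mature strands are shown first because 2 of these genes have partners with near-identical or complementary sequence, which decides which reads a count can hold. Sequences are from RefSeq (GRCm38.p6), in which all 6 genes matched at least 1 mature strand, and capitals mark the seed (bases 2 to 8). The RefSeq source lists no 5p strand of miR-150, so it is not shown and its seed was not compared. This limit concerns the sequences and not the counts.
miR-142a-5p: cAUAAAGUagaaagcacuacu
miR-142a-3p: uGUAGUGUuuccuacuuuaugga
miR-142b (opposite strand): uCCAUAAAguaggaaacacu
miR-223-3p: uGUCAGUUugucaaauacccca
miR-150-3p: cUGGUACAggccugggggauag
miR-155-5p: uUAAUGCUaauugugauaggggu
miR-146a-5p: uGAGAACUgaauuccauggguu
miR-146b-5p: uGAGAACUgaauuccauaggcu
miR-146a-5p and miR-146b-5p share the seed GAGAACU, and of the 1738 mature microRNAs in the RefSeq table no other has it. Among the strands that the table lists for these genes, no other shares its seed with another entry. Counted from the 5′ end of miR-146a-5p, the strands are identical over bases 1 to 17 and differ by G18A and U21C, so a full-length read tells them apart. miR-142b pairs fully with miR-142a-3p: its 20 bases are the reverse complement of bases 4 to 23. The counts are per hairpin gene, so 5p and 3p reads of a gene were not separated.

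The genes lie on 5 chromosomes (mm10). Mir142 (ENSMUSG00000105196.1, chr11:87756864-87756927, plus strand) lies in an intron of the long noncoding gene Mir142hg, 3.61 kb from the coding gene Tspoap1. All 64 bases of its hairpin lie within Mir142b (ENSMUSG00000065420.2), annotated on the opposite strand. Mir223 (ENSMUSG00000076066.1, chrX:96242817-96242926, plus strand) overlaps an exon of the noncoding gene F630028O10Rik. Mir150 (ENSMUSG00000065495.1, chr7:45121757-45121821, plus strand) overlaps no other annotated gene. Mir155 (ENSMUSG00000065397.1, chr16:84714140-84714204, plus strand) overlaps an exon of its noncoding host gene Mir155hg. Mir146 (ENSMUSG00000065601.1, chr11:43374397-43374461, minus strand), the gene of miR-146a, likewise lies between genes, and the nearest coding gene, Pttg1, is 45.8 kb away. Mir146b (ENSMUSG00000070127.2, chr19:46342762-46342870, plus strand) lies in an intron of the coding gene Mfsd13a. The hairpins of Mir146 and Mir146b share 21 consecutive bases. Apart from Mir142b, no microRNA gene of the tables shares 15 or more bases with the hairpin of Mir142, Mir223, Mir150 or Mir155. The GC content of the 6 hairpins ran from 40.0% for Mir146 to 63.1% for Mir150, around the median of 50.8% over all 2202 genes.

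The libraries held 6417302 counts (replicate 1) and 5662222 counts (replicate 2) over microRNA genes, on the strand of each gene. CPM below is a count scaled to that total. A floor of 3 counts, the most that a count of 0 leaves likely, corresponded to 0.467 and 0.530 CPM. Reads mapping to several places, 39.6% and 43.2% of all reads, are in no gene's count. The heart muscle genes Mir208a, Mir208b and Mir499 summed to 20993 and 19146 CPM, so the defining heart markers were present. They did not move together: Mir208a had 10883 and 6019 CPM, Mir208b 7457 and 5640 CPM, and Mir499 2653 and 7487 CPM. In the test described below, which scales libraries by TMM and not by these totals, Mir499 was called. Its log2 ratio of replicate 1 over replicate 2 there was −1.83. EdgeR's exact test, also described below, did not call Mir499 (adjusted p = 0.421). Intervals and standard errors of counting cover counting error only. No molecular identifiers are named, so reads may not be independent molecules and even that error may be understated.

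A gene counted as detected when neither library had under 10 counts of it, which 5 of the 6 genes met and Mir146b did not. Mir142, Mir223 and Mir150 are called blood-restricted below, which names a list fixed beforehand and is not a result of these data. Whether their reads came from blood cells or from other cells of the heart was not tested. Mir150 had 1075 counts in replicate 1 and 967 in replicate 2. This made 167.5 and 171 CPM, a mean of 169 ± 2.31 CPM (SD, n = 2). Mir150 was thus at nearly the same CPM in both hearts when scaled by library totals. With the TMM scaling of the test described below, its log2 ratio of replicate 1 over replicate 2 was −0.36. Mir142 had 1538 and 495 counts, or 239.7 CPM (exact Clopper-Pearson 95% bounds 228 and 252) and 87.4 CPM (79.9 and 95.5), a mean of 163.5 ± 108 CPM. Mir223 had 533 and 840 counts, or 83.1 CPM (76.2 and 90.4) and 148 CPM (138.5 and 159), a mean of 116 ± 46.2 CPM. Mir142 was high in replicate 1 and low in replicate 2, and Mir223 the other way round. All 3 lay above the median mean CPM of the 373 detected genes, 75.2.

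Mir155 and Mir146, known to be inducible, were the most abundant of the 6. Mir155 had 5200 counts in replicate 1 and 2633 in replicate 2, or 810.3 and 465 CPM, a mean of 638 ± 244 CPM (SD, n = 2). Mir146 had 3093 and 3826 counts, or 482 and 676 CPM, a mean of 579 ± 137 CPM. Mir155 was higher in replicate 1 and Mir146 in replicate 2. Mir146b had 0 counts in replicate 1, which allows up to 0.467 CPM, and 3 counts in replicate 2. Although both genes encode the same seed, Mir146 held at least 1031-fold more counts than Mir146b in replicate 1, set against the 3-count floor of that library. In replicate 2 the ratio was 1275, with exact Clopper-Pearson 95% bounds of 436 and 6187. Reads too short to reach base 18 of the 5p strand would match both genes and, as reads mapping to several places, be in neither count. Whether such reads were kept, and how many there were, is not given. In bulk tissue, fewer cells that make a microRNA and less of it per cell cannot be told apart.

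**Figure D1:**
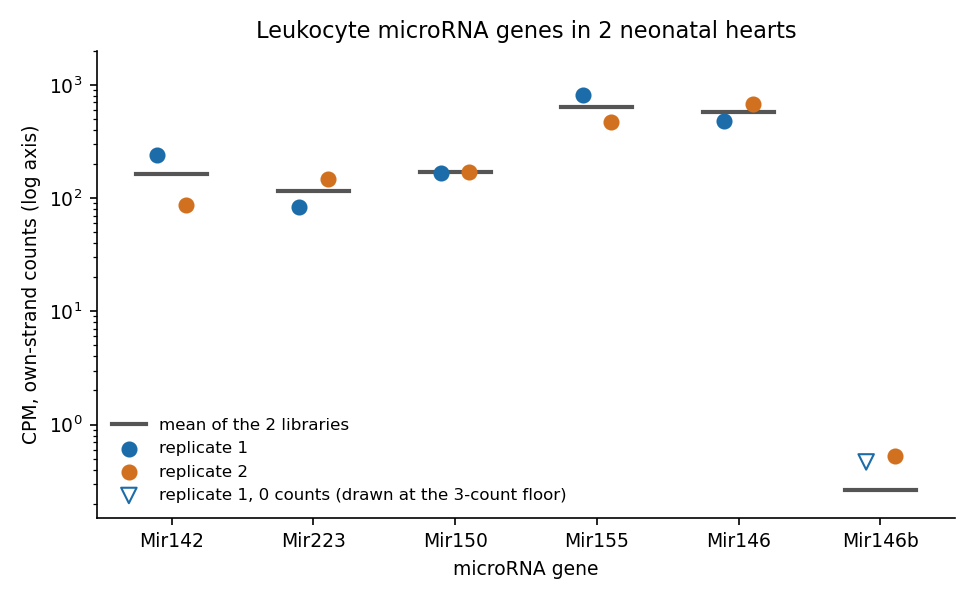
CPM of the 6 leukocyte microRNA genes (log axis) in the library of each heart, with points for libraries and bars for the mean of 2. Mir150 sits at 167.5 and 171 CPM, Mir142 and Mir223 part in opposite directions, and Mir146b lies at or under the floor of 3 counts.

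By mean CPM over all 2202 genes, Mir155 ranked 90, Mir146 96, Mir150 147, Mir142 148, Mir223 165 and Mir146b 625. These ranks, and the median of detected genes above, rest on counts without reads mapping to several places. Genes that lose reads in this way may therefore stand too low among them. Mir155 and Mir146 overlapped in range, so their order is not resolved, and both lay above Mir150, Mir142 and Mir223 in each library. Mir150 lay above Mir223 in each library, while the range of Mir142 held that of Mir150 and overlapped that of Mir223. Mir146b was far below them in both. Some orders were opposite in the 2 hearts. Mir155 exceeded Mir146 1.68-fold in replicate 1, and Mir146 exceeded Mir155 1.45-fold in replicate 2. Mir142 held place 3 of the 6 in replicate 1 and place 5 in replicate 2. Mature microRNAs are nearly equal in length, so CPM was not divided by length. Divided by the hairpin length, Mir142 and Mir223 stood at 374.5 and 75.5 CPM per 100 nt in replicate 1 and at 137 and 135 in replicate 2, where Mir142 then came before Mir223; the other places were the same.

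Summed over the 6 genes, the share of all counts was 0.178% for replicate 1 (exact Clopper-Pearson 95% bounds 0.175 and 0.182) and 0.155% for replicate 2 (0.152 and 0.158). Which heart had the larger sum depended on the scaling. With the TMM factors of the test described below (1.12 and 0.891), the sum was larger in replicate 2. The same held for the sum of the blood-restricted genes. The make-up of that sum differed between the hearts. Mir155 made up 45.5% of the 6 genes' counts in replicate 1 and 30.0% in replicate 2, and Mir146 27.0% and 43.7%. Mir142 made up 13.4% and 5.65%, Mir223 4.66% and 9.59%, and Mir150 9.40% and 11.03%. The counts of Mir155, Mir146 and Mir146b together were 2.64 times those of Mir142, Mir223 and Mir150 in replicate 1 and 2.81 times in replicate 2.

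**Figure D2:**
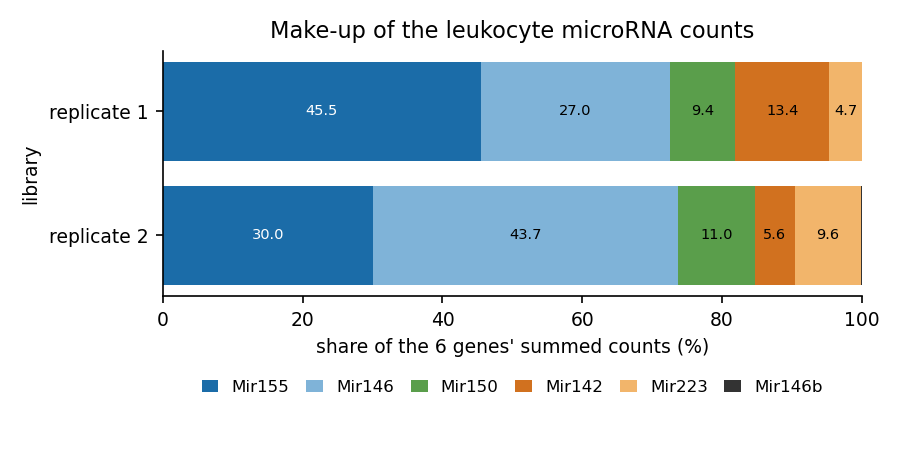
Share (%) of each gene in the summed counts of the 6 leukocyte microRNA genes, as stacked bars, 1 bar per library. Mir155 takes 45.5% in replicate 1 and Mir146 takes 43.7% in replicate 2, while Mir150 takes 9.40% and 11.03%.

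To ask which of these gaps exceeded counting noise, all genes whose counts in both libraries added up to 10 or more entered a two-sided exact binomial test. Library sizes were first scaled by TMM, a method that assumes most genes equal. This compares 2 libraries, not conditions. Of the 5 genes tested, 2 were called, with an adjusted p under 0.05 and over 2-fold, against 11.2% of all 491 genes tested. Mir142 had the higher value in replicate 1, with a log2 ratio of replicate 1 over replicate 2 of 1.12 (counting SE 0.07, exact adjusted p = 2.24e-56), a direction in which 3.67% of all genes were called. Mir223 had it in replicate 2, with a log2 ratio of −1.17 (counting SE 0.08, exact adjusted p = 3.10e-49), a direction taken by 7.54%. Both are on the list named blood-restricted, and they were called in opposite directions.

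Mir146 (log2 ratio −0.82, counting SE 0.03), Mir155 (0.47, counting SE 0.03) and Mir150 (−0.36, counting SE 0.06) were within 2-fold. All 5 had an exact adjusted p under 0.05, as did 47.9% of all genes tested, and the largest of the 5 was 6.66e-08, for Mir150. The median size of the log2 ratio was 0.82 over the 5 genes and 0.44 over all tested genes. Counting noise is not all the spread between libraries. When edgeR's exact test was run with the spread between these libraries included as a dispersion, it called none of the 5 genes and 0.815% of all genes. That dispersion comes from the very gap under test, so few calls are built in, and a gene it does not call is not shown to be equal. In that test the smallest unadjusted p of the 5 was 0.103, for Mir223, and all their adjusted p were 1.0. Scaling by total counts raised the median log2 ratio of all tested genes from −0.02 to 0.31 and left Mir142 over 2-fold (1.45) and Mir223 within it (−0.84). Mir150 then stood at −0.03 (exact adjusted p = 0.752).

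**Figure D3:**
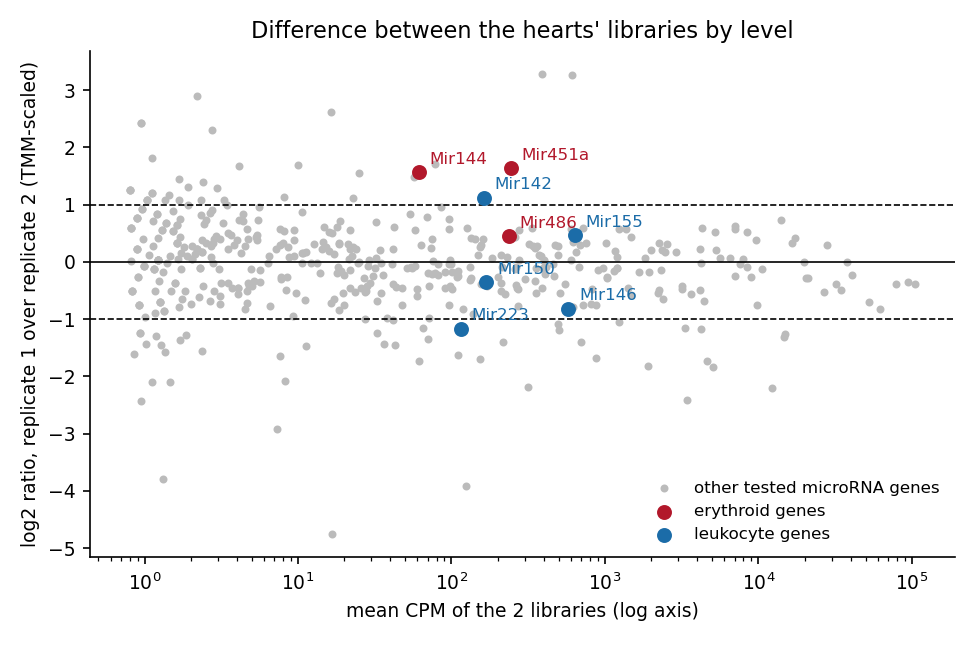
Log2 ratio of replicate 1 over replicate 2 (TMM-scaled) against mean CPM (log axis) for the 491 tested microRNA genes, with dashed lines at 2-fold, leukocyte genes in blue and erythroid genes in red. Mir142 lies above the upper line at 1.12, with Mir451a and Mir144, and Mir223 below the lower line at −1.17.

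Ratios between genes of the same library do not depend on its scaling, so the genes were also set against each other in pairs. Of the counts of Mir142 and Mir223, Mir142 made up 74.3% in replicate 1 (exact Clopper-Pearson 95% bounds 72.3 and 76.1) and 37.1% in replicate 2 (34.5 and 39.7), a 4.89-fold gap between the libraries' ratios. Mir142 with Mir146 followed (3.84-fold), then Mir223 with Mir155 (3.11-fold), Mir142 with Mir150 (2.79-fold) and Mir155 with Mir146 (2.44-fold). The other 5 pairs of detected genes were within 2-fold, from 1.27-fold for Mir223 with Mir146 to 1.78-fold for Mir150 with Mir155. Thus 5 of 10 pairs were over 2-fold apart, against 25.8% of the 69378 pairs that the 373 detected genes form. For all 10 pairs the intervals of the libraries did not overlap, against 45.7% of all such pairs, many of which rest on fewer counts. The 10 pairs come from 5 genes and are not independent of each other.

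**Figure D4:**
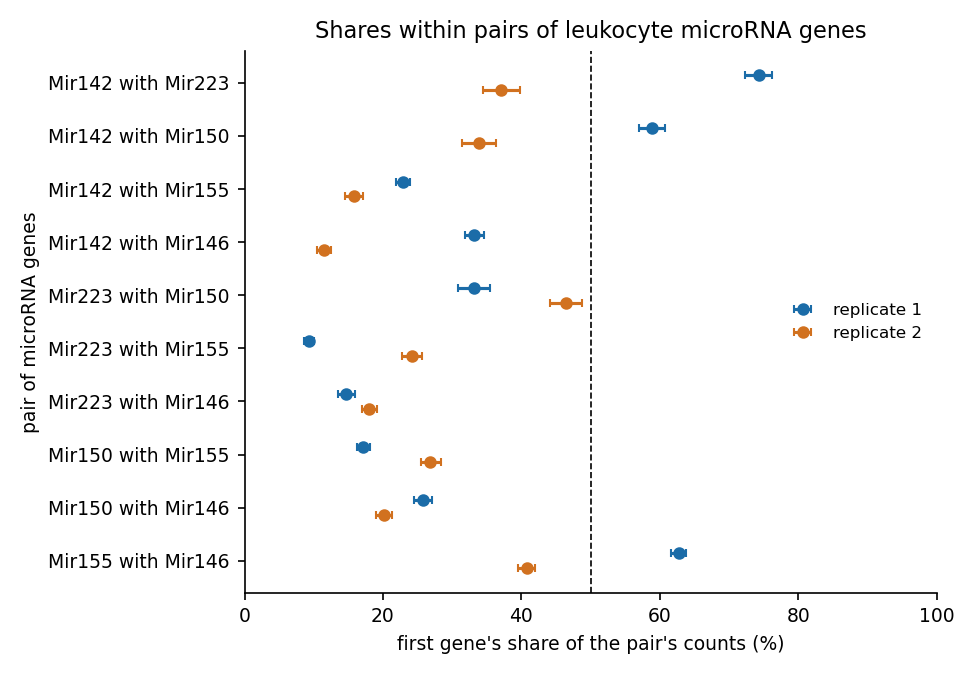
Share (%) of the first gene in the counts of each pair of detected leukocyte microRNA genes, with 95% Clopper-Pearson intervals, 1 point per library. Mir142 with Mir223, Mir142 with Mir150 and Mir155 with Mir146 lie on opposite sides of the dashed line at 50% in the 2 libraries.

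Red cell genes also differed between the libraries. The erythroid genes Mir451a, Mir144 and Mir486, none of them at 0, summed to 788 CPM in replicate 1 and 299.7 in replicate 2. Mir451a, which is processed in an unusual way without Dicer, had 2515 and 566 counts (log2 ratio 1.64), and 2 of the 3 genes were called higher in replicate 1, against 3.67% of all genes. EdgeR's exact test called neither Mir451a (adjusted p = 0.548) nor Mir144 (adjusted p = 0.686). Mir142 was the 1 leukocyte gene called in that direction. Beside Mir451a, Mir142 made up 37.9% of the pair's counts in replicate 1 and 46.7% in replicate 2, whereas Mir223 made up 17.5% and 59.7% and Mir150 29.9% and 63.1%. The part of red cell or residual blood content in the leukocyte values was not tested. The 7 epithelial genes summed to 595 and 662.5 CPM, above the 490.2 and 407 CPM of the blood-restricted genes, and none was at 0 in both libraries. Of these, 3 were called higher in replicate 2, the direction of Mir223, against 7.54% of all genes. They were Mir205 (9 and 180 counts, log2 ratio −4.76), Mir203 (−1.69) and Mir200b (−1.45), of which edgeR's exact test called Mir205 (adjusted p = 5.76e-05). The other 4 were not called and were mixed in direction. Mir200c, the most abundant epithelial gene (420 and 284 CPM), had a log2 ratio of 0.23 and Mir429 one of −0.76. Mir141 stood at 0.32 (counting SE 0.24, exact adjusted p = 0.320). Mir200a stood at −0.36 (counting SE 0.38, exact adjusted p = 0.494). The directions of Mir141 and Mir200a were thus not resolved from counting noise. The part of the epithelial genes in the value of Mir223 was not tested. The liver gene Mir122 held 105 and 86.2 CPM. Beside it, Mir223 held 83.1 and 148 CPM, Mir142 239.7 and 87.4 CPM, and Mir150 167.5 and 171 CPM. The source of the Mir122 counts was not tested. The endothelial genes, nearly all Mir126a, summed to 51830 and 73011 CPM, so the levels of Mir155 and Mir146 stood beside a far larger endothelial signal whose part in them was not tested.

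Of 13 other microRNA genes known from immune cells, 11 were detected and 12 tested. Of these, 1 was called, a share near the 11.2% of all genes. It was Mir511, which lies in the gene of a macrophage mannose receptor (28 and 62 counts, log2 ratio −1.65). Mir511 was called in the same direction as Mir223, but not by edgeR's exact test (adjusted p = 0.710). Their median log2 ratio was −0.26, against −0.36 for the 5 leukocyte genes tested and −0.02 for all tested genes. The most abundant were Mir342, known from lymphocytes and other cells, at 3037 and 3334 CPM, and Mir181d of the miR-181 family, known from thymocytes among other cells, at 2786 and 1925 CPM. Both exceeded all 6 leukocyte genes in each library.

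For each gene the other detected gene nearest in log2 CPM over the 2 libraries was sought, as a description from 2 points only. The closest match was Mir708 for Mir150 (171 CPM on average, distance 0.05), followed by Mir337 for Mir155 (619 CPM, 0.10) and Mir10b for Mir146 (623 CPM, 0.15). Mir223 was nearest to Mir181a-2 (118 CPM, 0.27). Mir142 had no close match, since the nearest, Mir669c at 178 and 107 CPM, was 0.52 away. The nearest detected gene to Mir146b, Mir5622, was 4.72 away.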

How the data were processed

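The authors deposited 1 table of raw counts for each library, by microRNA gene, not normalized or pooled. Per the file headers, the authors used mm10 and GENCODE M21; for aligner, counter and trimming, nothing is given in the sources used here. Each table has 3 count columns (both strands, own strand, opposite strand) and 4 summary entries, which stayed out of library sizes and tests. The own-strand column was used. It held 84.0% and 82.8% of the counts of the own-strand and opposite-strand columns together, and 44.4% and 42.0% of all reads. A read where 2 genes overlap on opposite strands stands in both columns. Mir126a had 332605 and 413403 own-strand counts, and Mir126b 332588 and 413384 opposite-strand counts. The rest of the counts is thus not a measure of antisense reads.

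Members and lists were chosen with earlier results of these data known. Named genes are the members, genes overlapping or sharing 15 nt with them, the nearest in level, and fixed marker and immune lists. CPM used own-strand totals. The exact binomial test used TMM factors (1.12 and 0.891, edgeR 4.0.16, R 4.3.3), 0.5 added to counts in log2 ratios, and Benjamini-Hochberg adjustment over 491 genes. It was tested on simulated data that held counting noise alone, so its behaviour under the wider spread of these libraries was not tested. The libraries differed by more than sampling noise (chi-square 709 per degree of freedom), so they are not 1 library deposited again. They were counted as separate samples because the labels number different animals; the chi-square does not tell animals from repeat preparations. A replicated count model could not be fitted with 1 library per heart. EdgeR's exact test used a common dispersion over 373 detected genes taken as 1 group (biological coefficient of variation 0.339). DESeq2 1.42.0 gave alternative size factors. Python 3.11.15, scipy 1.17.1, pandas 2.3.3 and matplotlib 3.10.9 were used.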

Additional observations from a re-analysis of the deposited data

Results flagged for a closer look

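Mir150 had 4 counts on the strand opposite to the gene in replicate 1, just above the 3 counts that a count of 0 allows, and 1 in replicate 2. These reads lie outside the own-strand counts described above. The opposite-strand column was at 0 in both libraries for the other 5 genes.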

How the results depend on the processing

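The number of leukocyte genes called, 2, was the same with DESeq2 size factors, without a filter on low counts, with 10 counts asked of each library and with 1 added to each count. It was 1 with scaling by total counts, where Mir223 came inside 2-fold, 1 in the both-strand column, where Mir142 has no counts, and 0 in edgeR's exact test with an estimated dispersion. Over these alternatives the log2 ratio ran from 1.12 to 1.45 for Mir142 and from −1.19 to −0.84 for Mir223, and no gene changed direction. In the both-strand column the 6 genes together held 0.188% of the counts, the blood-restricted genes 0.0357% and the inducible genes 0.152%, against 0.167%, 0.0448% and 0.122% in the own-strand column. Set against all reads of the tables these shares were 0.0721%, 0.0194% and 0.0526%. With 1 library left out they ran from 0.155% to 0.178%, from 0.0407% to 0.0490% and from 0.114% to 0.129%. Mean CPM on TMM-scaled totals stayed within 1 SD for all 6 genes. Divided by hairpin length, an alternative chosen after seeing the data, the log2 level of Mir142 over Mir223 in replicate 2 was 0.0184, against −0.76 without it, and in replicate 1 it was 2.31, against 1.53. No paired analysis was possible because both libraries belong to 1 group. Over all tested genes, 18 were called higher in replicate 1 and 37 in replicate 2, against 39 and 22 with scaling by total counts and 2 and 2 in edgeR's exact test.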

Other observations

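Mir142 can be read from these tables only with the strand. Its 1538 and 495 counts reappear as the opposite-strand counts of Mir142b, which had 0 counts on its own strand in both libraries, which allows up to 0.467 and 0.530 CPM. In the column that ignores strand both genes stand at 0. Of the 373 detected genes, 22 likewise stand at 0 in that column in both libraries. Mir451a and Mir486, which were set beside the leukocyte genes above, are also at 0 there.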
